A study of Mus musculus with 30 samples.

Results

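Satellite cells isolated 28 days after muscle injury were compared with satellite cells from uninjured muscle, to ask how closely the transcriptome had returned to that of quiescent cells and which genes still differed. The comparison was set by the labels, as the libraries titled for 28 days against those titled uninjured, and takes 4 of the 30 libraries of the series, 2 in each group. All 4 came from skeletal muscle of C57BL/6 mice that were perfused with paraformaldehyde (PFA), a fixative, before the cells were isolated, so that the cells were fixed before dissociation. The 28 day cells came from hind limbs injured by injection of barium chloride (BaCl2), a salt that destroys muscle fibres and spares many satellite cells. The uninjured cells carry the treatment label none. The fit also held the libraries taken 0.5, 1, 2, 4, 8, 16, 32 and 60 h and 7 and 14 days after the same injury, 24 libraries in 12 groups of 2. The uninjured libraries sit in a table with the times up to 60 h and the 28 day libraries in another with 7 and 14 days, so that the table and the group cannot be told apart. Ages, sexes and uninjured animals kept for 28 days are not given in the labels. Nothing in the labels says that libraries of a group came from separate animals, and p-values then measure only the spread between these samples, which may be technical.

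Satellite cells lie between the muscle fibre and its basement membrane, outside the cell cycle, and are recognised by the transcription factor Pax7. Notch signalling, collagen of the niche and receptors such as Calcr are known to hold them in quiescence. After injury they leave this state, induce Myod1, divide, and either differentiate through Myog into new fibre or return to the niche as quiescent cells. Cells caught at 60 h are therefore a point of reference for division, and the uninjured cells one for quiescence.

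The libraries differed in ways that touch every result. The uninjured libraries held 13.5 and 21.4 M counts and the 28 day libraries 13.9 and 9.76 M. The share of counts in ribosomal RNA models was 46.8% and 35% in uninjured cells and 8.83% and 5.82% at 28 days. Models made of satellite repeats, a class of tandem DNA repeats unrelated to the cells' name, took 0.00112% and 0.00435% of the uninjured counts and 15% and 2.56% of those at 28 days. Mitochondrial genes took 6.85% and 5.71% against 13.4% and 7.42%. Over the 2000 genes that varied most among the 24 libraries, the uninjured pair correlated at Pearson r 0.812 and the 28 day pair at 0.666, and replicate 1 at 28 days lay farther from the uninjured libraries (0.514 and 0.55) than replicate 2 (0.638 and 0.68). Expression is given below as CPM, read counts scaled to a common library size after TMM correction for composition. In bulk libraries such as these, fewer cells of a type and less RNA per cell cannot be told apart. Groups of 2 libraries can also fail to overlap without a change, and the share of all genes that did so is not given here.

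By group means the 28 day cells were most like the uninjured cells and least like the cells at 60 h. Correlation of these means over the same 2000 genes, a description with no test, was 0.682 with uninjured cells, 0.595 with 14 day cells, 0.55 with 7 day cells, 0.613 to 0.671 with the 0.5 to 4 h groups, 0.393 to 0.459 with the 8 to 32 h groups and 0.245 with 60 h cells. The root mean square log2 difference from 28 day cells over 15232 genes was 1.47 for uninjured, 1.49 for 14 day, 1.51 for 7 day and 2.26 for 60 h cells. The first 3 lay close together by this measure, and the 0.5 to 4 h groups, at 1.53 to 1.66, were not far above them. The 8 to 32 h groups had 1.83 to 2.15. Single libraries of the first hours were as like the 28 day cells as the uninjured libraries were. Replicate 2 at 28 days correlated at 0.721 and 0.52 with the libraries at 0.5 h and at 0.505 and 0.711 with those at 2 h, against 0.638 and 0.68 with the uninjured libraries, so that the order of the groups depends on pairs that differ within a time. The uninjured libraries and the 60 h libraries share a table, and the 7 and 14 day libraries share the other with the 28 day cells.

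**Figure D1:**
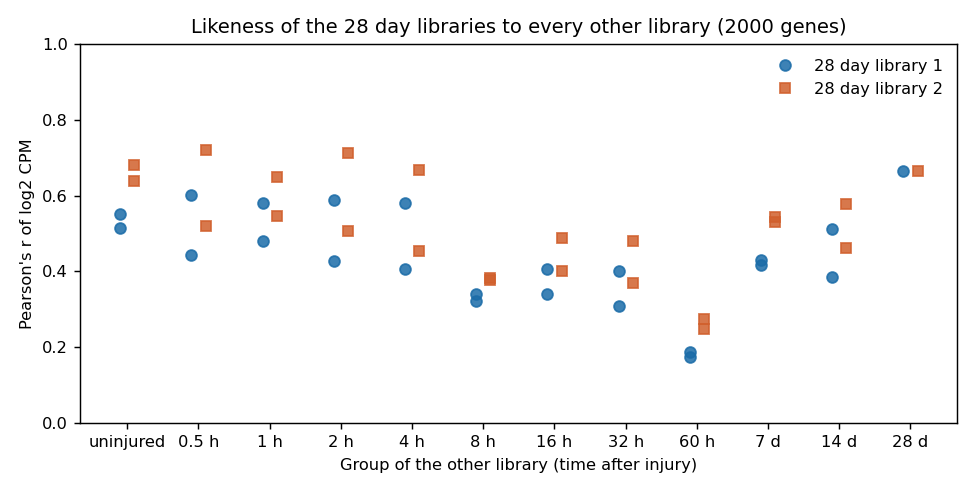
Pearson correlation of each 28 day library (2 colours) with every other of the 24 libraries over the 2000 most variable genes, by time after injury. Both 28 day libraries fall to their lowest values at 60 h (0.173 and 0.188 for replicate 1, 0.248 and 0.273 for replicate 2), and replicate 1 lies below replicate 2 against each of the other 22 libraries.

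Of 23244 genes tested with edgeR's quasi-likelihood test, 1312 (5.64%) differed between 28 day and uninjured cells at an adjusted p below 0.05. Of these 431 (1.85%) were higher and 881 (3.79%) lower at 28 days. Against 60 h cells 6299 genes (27.1%) differed, 3156 (13.6%) higher and 3143 (13.5%) lower, and 3752 without replicate 1 at 28 days, 3311 without replicate 1 at 60 h and 3188 without replicate 2 at 60 h. At an unadjusted p under 0.05 there were 5172 against uninjured cells. Most genes could not be placed as close to their uninjured level either. The 95% interval of the log2 change lay within 2-fold for 560 of 21880 genes (2.56%) and within 4-fold for 6053 (27.7%), and among the 6567 genes with a mean of at least 20 CPM within 4-fold for 3980 (60.6%). With any of the 4 libraries left out, 105 to 166 genes lay within 2-fold. In simulated counts of the same design 200 of 22336 genes were changed, all above a minimum count in uninjured cells. Of those changed 4-fold 20% were called, and of those changed 16-fold 78%. Fewer genes were changed than were called here, so these rates need not hold for this comparison. A gene without a call is not shown to be back. With replicate 1 at 28 days left out the count of calls was 296, with replicate 2 left out 964, without uninjured replicate 1 324 and without uninjured replicate 2 354. Without the 0.5 to 4 h groups it was 2206, with DESeq2 3280, and without the ribosomal RNA and mitochondrial models 1288.

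The genes that mark satellite cells were present at 28 days, some with values that overlapped those of uninjured cells and others not. No marker in this or the next paragraph had an interval of the log2 change within 2-fold. None of them is therefore shown to be back at its uninjured level. Pax7 was at 2031 and 1790 CPM in the uninjured libraries and 572 and 699 CPM at 28 days, with 154 and 147 CPM at 60 h. Both 28 day values lay below both uninjured values and above both 60 h values, but the log2 change from uninjured cells of -1.59 ± 1.09 (SE) did not pass (adjusted p = 0.409, edgeR). With only uninjured, 7, 14 and 28 day libraries in the fit it was called lower (adjusted p = 0.021), as it was with only the groups compared (0.025) and with no filter on low counts (0.0152), but not without the 0.5 to 4 h groups (0.12).

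Calcr, the calcitonin receptor that keeps the cells in the niche, was at 171 and 207 CPM in uninjured cells and 57.3 and 113 CPM at 28 days, against 13.6 and 16.3 CPM at 60 h. Its 28 day values lay between the other groups, with an adjusted p of 0.185 against uninjured cells. The surface proteins Cd34 (125 and 264 CPM uninjured, 127 and 169 CPM at 28 days) and Vcam1 (160 and 147 CPM, then 99.2 and 259 CPM) overlapped between the groups. Spry1, an inhibitor of growth factor signalling needed for the return to quiescence, overlapped as well, at 156 and 186 CPM uninjured and 83.4 and 223 CPM at 28 days, after 16.8 and 15.6 CPM at 60 h. Its log2 change from 60 h was 3.24 (adjusted p = 0.000231). Chodl, a lectin-like membrane protein of quiescent satellite cells, stood above its uninjured level at 28 days, 2421 and 3018 CPM against 1057 and 1064 CPM, without passing the test (adjusted p = 0.349). Sdc4, a heparan sulfate proteoglycan of the cell surface, and Cdh15, M-cadherin of the contact with the fibre, were at 682 and 871 CPM and 166 and 146 CPM uninjured and at 953 and 1452 CPM and 106 and 108 CPM at 28 days (adjusted p 0.713 and 0.758). Myf5, the myogenic factor already transcribed in quiescence, was at 215 and 499 CPM uninjured and 652 and 1759 CPM at 28 days (adjusted p = 0.15).

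Of 29 listed genes of satellite cell identity and quiescence, 3 were lower and none higher by edgeR at 28 days than in uninjured cells (3.79% of all genes tested were lower), with a median log2 change of -0.32, where the median of all genes tested was 0. DESeq2 called 4 lower and 1 higher, the fit without a filter on low counts 5 and 2, and the fit of only the groups compared 7 and 1. Against 60 h the same list had 15 higher and 5 lower, with a median of 2.2. Chrdl2, a secreted BMP antagonist, went from 11.6 and 10.9 CPM at 60 h to 169 and 162 CPM at 28 days, against 251 and 303 CPM uninjured, and Megf10, an engulfment receptor, and Dag1, dystroglycan, were at 554 and 606 CPM and 1747 and 1616 CPM uninjured and 149 and 220 CPM and 300 and 476 CPM at 28 days. None of these 3 passed against uninjured cells (adjusted p 0.285, 0.168 and 0.104), but Megf10 was called lower under 4 and Dag1 under 5 of 15 alternative settings (smallest adjusted p 0.0226 and 0.00024). The lower genes were Hmcn2, Sox8 and Itga7. Hmcn2, the large extracellular matrix protein hemicentin 2 (ENSMUSG00000055632, chr2:31314415-31460738, mm10), was at 6108 and 4598 CPM uninjured, 96.4 and 94.9 CPM at 60 h, 481 and 398 CPM at 7 days, 845 and 991 CPM at 14 days and 1600 and 1269 CPM at 28 days. The groups did not overlap at any of these times, and the 28 day cells were still 1.90 ± 0.31 log2 below uninjured cells (adjusted p = 0.00251). Sox8, a transcription factor of satellite cells, fell from 157 and 122 CPM to 9.55 and 13 CPM (adjusted p = 0.0212), and Itga7, a laminin receptor subunit used in some protocols to sort these cells, from 512 and 405 CPM to 219 and 170 CPM (0.0222). With each of the 4 libraries left out in turn, the adjusted p of Hmcn2 was between 0.00905 and 0.0347, that of Sox8 between 0.0607 and 0.185 and that of Itga7 between 0.0676 and 0.178. Without replicate 1 at 28 days the list held 1 higher and 1 lower gene.

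**Figure D2:**
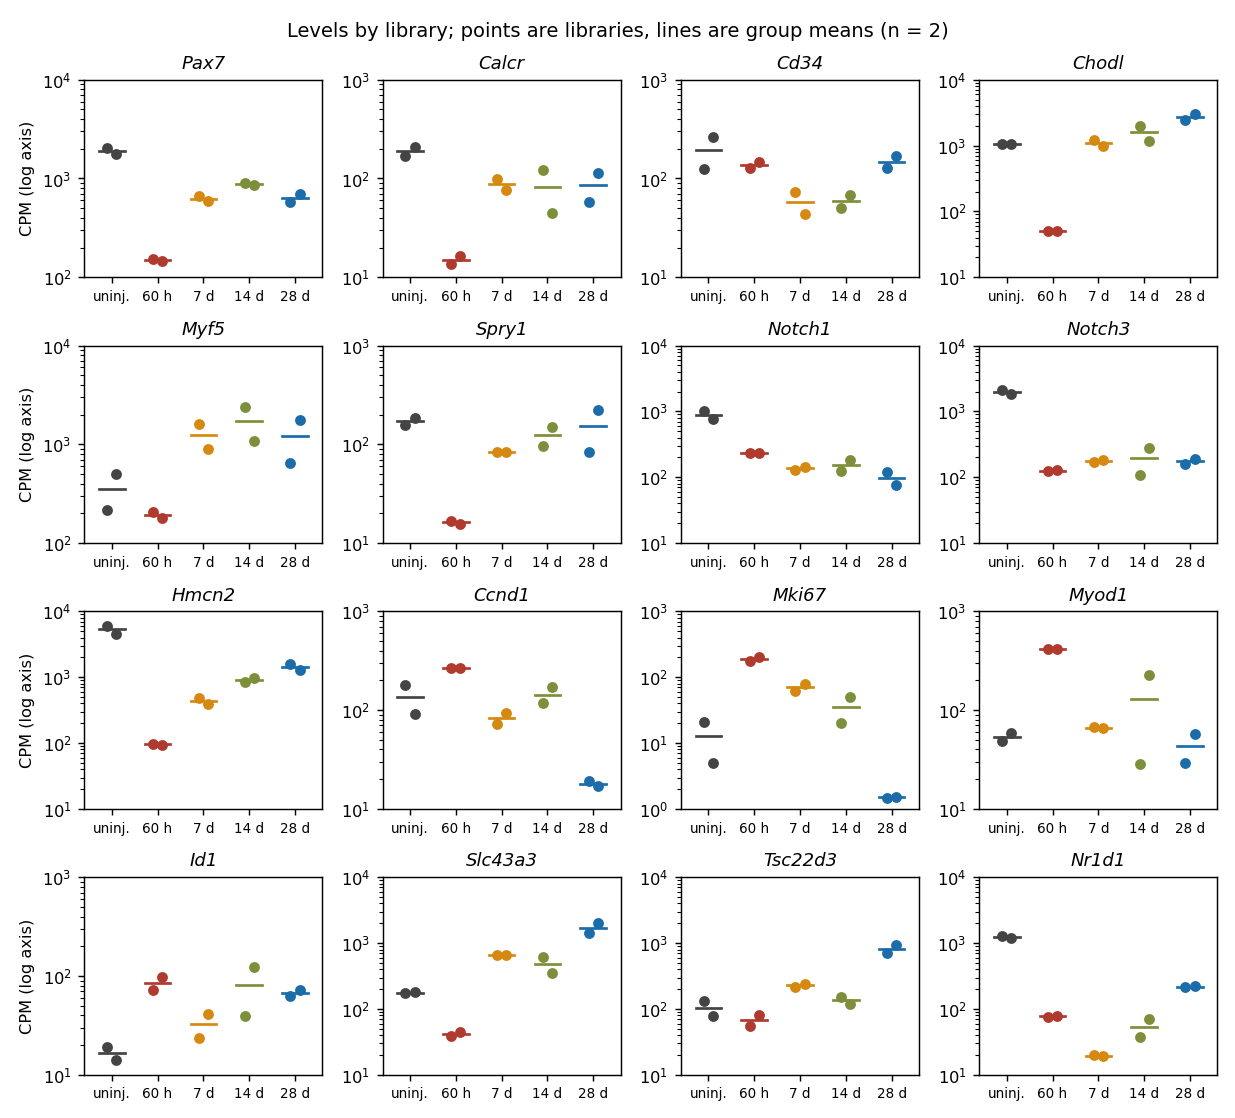
CPM on a log axis of 16 genes in each of the 2 libraries (points, with a line at the group mean) of uninjured, 60 h, 7 day, 14 day and 28 day cells. Pax7, Notch1, Notch3 and Hmcn2 lie below their uninjured levels at 28 days, and Slc43a3 and Tsc22d3 lie above. Mki67 goes from 176 and 203 CPM at 60 h to 1.49 and 1.51 CPM at 28 days, below both uninjured libraries.

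Genes of DNA replication and mitosis were far below their 60 h level at 28 days. Of all genes tested 13.5% were lower than at 60 h, and 1.85% were higher and 3.79% lower than in uninjured cells. An unadjusted p under 0.05 against uninjured cells was reached by 5172 of the 23244 genes. Of 20 G2 and mitosis genes, 20 were lower at 28 days than at 60 h (median log2 change -7.51), and against uninjured cells edgeR called none higher and 2 lower, Tpx2 and Prc1, both of the mitotic spindle (9 had an unadjusted p under 0.05). DESeq2 called 2 higher and 5 lower, and the fit without a filter on low counts 3 higher and 6 lower. Summed over the list, the level was 57.4 and 31.6 CPM uninjured, 2930 and 2950 CPM at 60 h, then 19.6 and 28.4 CPM at 28 days. The 28 day sums lay below both uninjured sums. Tpx2 was at 4.06 and 1.39 CPM uninjured, 95 and 103 CPM at 60 h, then 0 and 0.319 CPM at 28 days (adjusted p = 0.0239 against uninjured), and without replicate 1 at 28 days neither gene passed (adjusted p up to 0.189 for Tpx2 and 0.146 for Prc1 over the 4 left-out libraries). The proliferation marker Mki67 was at 20.7 and 4.92 CPM uninjured and 1.49 and 1.51 CPM at 28 days, with an adjusted p of 0.115. Of 20 S phase genes, 19 were lower than at 60 h, and against uninjured cells 1 was higher and none lower by edgeR (1 and 2 by DESeq2). The higher gene was Rrm2, a subunit of ribonucleotide reductase, at 2.99 and 3.75 CPM uninjured, 763 and 880 CPM at 60 h, then 7.13 and 17.6 CPM at 28 days (log2 change from uninjured 1.87 ± 0.46, adjusted p = 0.0254; 0.0202 to 0.24 with a library left out). Pcna, the clamp of DNA polymerase, was at 20.6 and 17 CPM uninjured and 15.2 and 22.4 CPM at 28 days.

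Genes that drive G1 differed from uninjured cells in both directions. Ccnd1, cyclin D1, fell below the uninjured level, from 178 and 91.4 CPM to 19.2 and 16.9 CPM, a log2 change of -2.90 ± 0.61 (adjusted p = 0.0109), after 269 and 269 CPM at 60 h. Its partner kinase Cdk6 was instead higher than in uninjured cells, at 47.1 and 75.8 CPM against 22.7 and 14.1 CPM (1.74 ± 0.36, adjusted p = 0.00957), after 436 and 422 CPM at 60 h. For each the groups did not overlap, which groups of 2 libraries can show without a change. With a library left out the adjusted p reached 0.0984 for Ccnd1 and 0.136 for Cdk6. None of 16 cell cycle inhibitors differed from uninjured cells by edgeR (4 at an unadjusted p under 0.05, 1 called by DESeq2). Over all genes tested edgeR called 5.64%. Cdkn1b, the inhibitor p27, was at 56.1 and 66.6 CPM uninjured, 18.1 and 20.9 CPM at 60 h, then 121 and 157 CPM at 28 days (adjusted p = 0.129 against uninjured).

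None of 20 genes of myogenic differentiation differed from uninjured cells by edgeR (8 had an unadjusted p under 0.05, and DESeq2 called 1 higher and 1 lower), while 9 were lower and 1 higher than at 60 h. Over all genes tested 5.64% were called against uninjured cells, and 13.5% were lower and 13.6% higher than at 60 h. Myod1, the factor of activated myoblasts, was at 48.2 and 58.5 CPM uninjured, 420 and 414 CPM at 60 h, then 29 and 57.8 CPM at 28 days, so its 28 day values overlapped those of uninjured cells. Myog, which drives differentiation, was at 36.3 and 10.8 CPM uninjured and 8.14 and 6.85 CPM at 28 days, after 306 and 364 CPM at 7 days. Mymk, the fusion protein myomaker, had no count in either 28 day library and 6.41 and 0.482 CPM in uninjured cells, which is at least 20.8-fold lower by a floor of 3 counts over the group, with an adjusted p of 0.0711.

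Other programmes of the injured state were counted in the same way. Of 17 heat shock and 25 ribosome biogenesis genes, 11 and 7 were lower than at 60 h, where 13.5% of all genes tested were. Against uninjured cells none of either list was called, close to the 5.64% of all genes tested in lists this small. At an unadjusted p under 0.05 there were 2 and 1, and DESeq2 called 1 and 0. Hspa8, the constitutive chaperone Hsc70, remained between the groups, at 377 and 341 CPM uninjured, 3471 and 3596 CPM at 60 h, then 1060 and 971 CPM at 28 days (adjusted p = 0.065 against uninjured, with a call under 6 of 15 alternative settings). Of 25 immediate early genes 1 was higher and 1 lower, where 1.85% and 3.79% of all genes tested were. Egr1 was lower, 904 and 521 CPM uninjured against 161 and 192 CPM at 28 days (adjusted p = 0.0382, and 0.0701 to 0.252 with a library left out), whereas Fos overlapped at 104 and 62.3 against 44.6 and 110 CPM. Klf6 was at 45.9 and 50.8 CPM and 208 and 187 CPM without a call (0.0612), though it was called under 6 of 15 alternative settings. Klf2, a zinc finger factor, had no count in the uninjured libraries and 2.74 and 1.27 CPM at 28 days, at least 18.8-fold higher (adjusted p = 0.0389, and 0.0507 to 0.236 with a library left out).

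**Figure D3:**
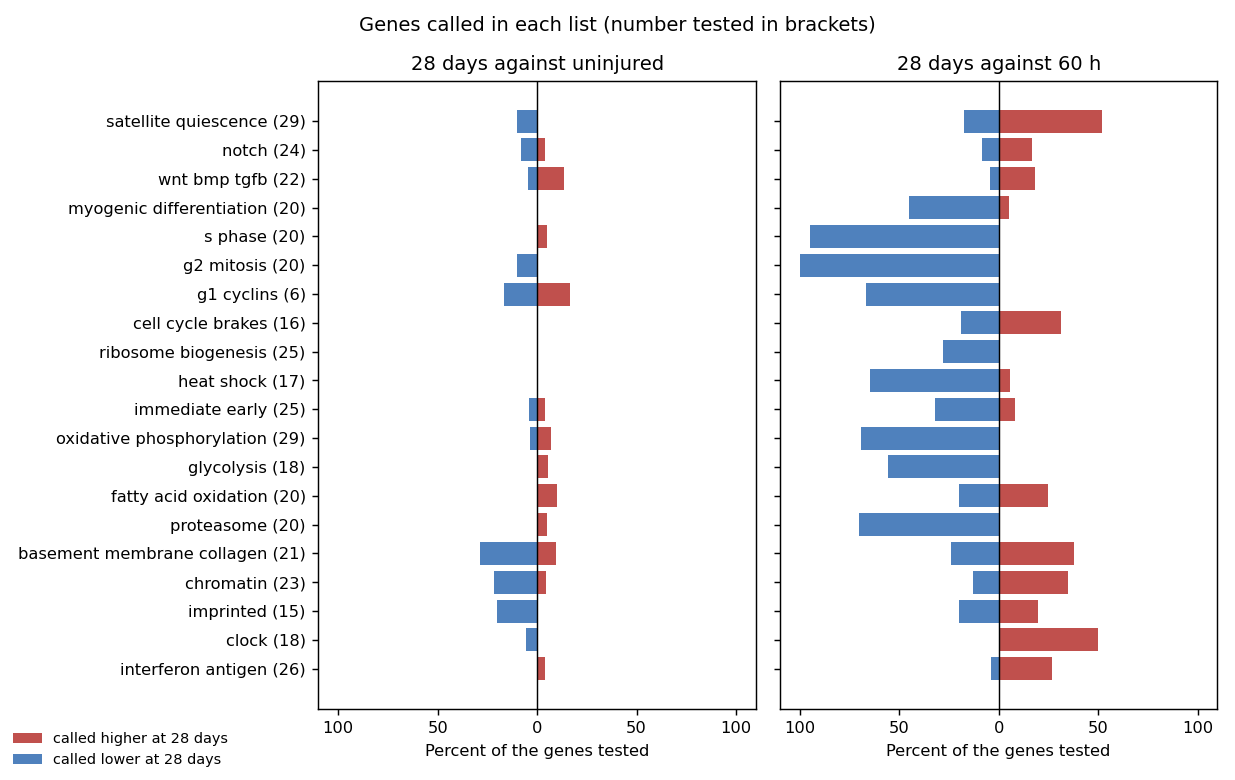
Percent of the tested genes of 20 lists called higher (red, to the right) or lower (blue, to the left) at 28 days, against uninjured cells in the left panel and against 60 h cells in the right panel. The S phase and G2 and mitosis lists are almost wholly lower against 60 h (19 of 20 and 20 of 20) and hold 1 and 2 called genes against uninjured cells. Over all genes tested 5.64% were called against uninjured cells.

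Among the genes that differed were 2 receptors of the Notch pathway, both lower. Ligands on the fibre bind Notch receptors on the satellite cell, and the cleaved receptor acts with Rbpj on targets such as Hes1, Hey1 and Heyl. Notch1 (ENSMUSG00000026923, chr2:26457903-26516663, minus strand, mm10) was at 1001 and 759 CPM in uninjured cells, 230 and 233 CPM at 60 h, 130 and 145 CPM at 7 days, 123 and 181 CPM at 14 days and 119 and 76.5 CPM at 28 days. All of these later libraries lay below both uninjured libraries, and the 28 day log2 change was -3.17 ± 0.37 (adjusted p = 0.000153). Notch3 (ENSMUSG00000038146, chr17:32120820-32166852, minus strand) fell from 2095 and 1871 CPM to 159 and 189 CPM, close to the 123 and 127 CPM at 60 h, with a log2 change of -3.51 ± 0.89 (adjusted p = 0.0291). Notch2, the other receptor of these cells, was at 591 and 578 CPM uninjured and 337 and 510 CPM at 28 days (adjusted p = 0.537). The call of Notch1 held with any library left out (0.000675 to 0.0049), and that of Notch3 held with none (0.0843 to 0.207), nor did Notch3 pass with a correction for GC content and transcript length that was chosen after the data were seen (0.0531).

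The canonical targets were not called by edgeR. Hes1 was at 100 and 105 CPM uninjured and 184 and 191 CPM at 28 days, Hey1 at 68.9 and 89.1 CPM against 68 and 62.8 CPM, and Heyl at 694 and 700 CPM against 180 and 263 CPM. None passed, with adjusted p-values of 0.644, 0.886 and 0.178, but Heyl was called lower under 4 of 15 alternative settings (smallest adjusted p 0.0123). Jag1, a ligand, was higher, at 27.4 and 37.5 CPM uninjured and 101 and 132 CPM at 28 days (log2 change 1.84 ± 0.49, adjusted p = 0.0369; 0.104 to 0.258 with a library left out), with 224 and 210 CPM at 7 days. In all, 1 of 24 Notch pathway genes was higher and 2 were lower, where 1.85% and 3.79% of all genes tested were, with a median log2 change of -0.405, and without replicate 1 at 28 days none was higher and 1 was lower.

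The 250 bases before the RefSeq start (GRCm38.p6, 5′ to 3′ on the gene's strand) of both receptors that were lower are shown with matches to the GC box letters GGGCGG, on either strand, in capitals. Windows of Notch1 (chr2:26503823-26504072) and Notch3 (chr17:32166891-32167140) held 5 and 4 matches, which are letters in a window and not sites. The Notch1 window lies inside the longer GENCODE gene model.
Notch1: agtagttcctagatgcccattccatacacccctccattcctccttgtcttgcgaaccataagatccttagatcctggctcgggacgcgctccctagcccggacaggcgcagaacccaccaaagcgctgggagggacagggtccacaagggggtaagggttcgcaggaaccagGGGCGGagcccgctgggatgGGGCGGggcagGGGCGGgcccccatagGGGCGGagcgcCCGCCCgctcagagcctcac
Notch3: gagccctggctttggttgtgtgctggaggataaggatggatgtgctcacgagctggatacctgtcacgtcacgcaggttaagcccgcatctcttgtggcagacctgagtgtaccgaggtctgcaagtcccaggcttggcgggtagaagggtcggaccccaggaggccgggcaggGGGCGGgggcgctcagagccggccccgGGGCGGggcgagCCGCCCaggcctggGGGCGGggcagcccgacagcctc
GGGCGG was present in 10756 of 32851 promoter windows of this length (32.7%), and the GC content of these windows was 66% and 68.8%.

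Of 21 genes of the basement membrane and collagen 6 were lower and 2 higher, against 3.79% and 1.85% of all genes tested. The list's median log2 change was -0.673, and -0.12 with 4 lower under the correction for GC content and length. Hspg2, the proteoglycan perlecan of the basement membrane, fell from 802 and 671 CPM to 80.4 and 52.2 CPM (log2 change -3.47 ± 0.48, adjusted p = 0.00064). Lamc1, the laminin gamma 1 chain, fell from 267 and 266 CPM to 52.9 and 76.6 CPM, and Col4a2, a chain of basement membrane collagen, from 246 and 151 CPM to 35 and 65 CPM (adjusted p 0.00295 and 0.00669). The collagens Col6a2 and Col15a1 and the niche collagen Col5a1 fell too. Col6a2 went from 168 and 149 CPM to 20 and 28.7 CPM and Col15a1 from 194 and 127 CPM to 10.2 and 11.8 CPM (adjusted p 0.0121 and 0.0334). Col5a1 went from 253 and 171 CPM to 56.3 and 97.8 CPM (adjusted p = 0.0302), while Col5a2, another chain of the same collagen, rose from 67.9 and 56.3 CPM to 147 and 144 CPM (0.0366). Col4a1 (336 and 233 CPM uninjured, 176 and 164 CPM at 28 days), Col6a1 (169 and 166 CPM, then 121 and 164 CPM) and the laminin chain Lama2 (312 and 313 CPM, then 199 and 331 CPM) did not pass.

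The difference between chains of one protein was not itself tested. Lama4 was the other higher gene, at 0.855 and 0.321 CPM uninjured and 12.9 and 3.74 CPM at 28 days (adjusted p = 0.0156). The call of Hspg2 held with each of the 4 libraries left out (0.00294 to 0.0117). Without replicate 1 at 28 days it was the single call of this list, and the largest adjusted p over the left-out libraries was 0.0625 for Lamc1, 0.108 for Col4a2, 0.14 for Col6a2, 0.221 for Col15a1, 0.269 for Col5a1, 0.243 for Col5a2 and 0.167 for Lama4. Ryr3, a calcium release channel (1923 and 1894 CPM uninjured, 106 and 161 CPM at 28 days, adjusted p = 0.029), and Tnxb, the matrix protein tenascin X (383 and 336 CPM, then 23.1 and 20.2 CPM, 0.00111), were also lower, and with a library left out reached 0.221 and 0.0236.

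Some regulators of chromatin were lower where a near relative was not called. Srcap, the ATPase that places the histone variant H2A.Z, fell from 906 and 779 CPM to 82.3 and 30.5 CPM (log2 change -3.90 ± 0.48, adjusted p = 0.000254). Ep300, a histone acetyltransferase, fell from 248 and 255 CPM to 64.6 and 53 CPM (-2.10 ± 0.37, 0.00412), and its paralogue Crebbp was at 187 and 173 CPM uninjured and 227 and 233 CPM at 28 days. Kmt2d, a histone H3 methyltransferase, fell from 1609 and 1611 CPM to 296 and 343 CPM (log2 change -2.33, adjusted p = 0.00717), whereas its relative Kmt2a was at 302 and 312 CPM uninjured and 427 and 274 CPM at 28 days. Crebbp and Kmt2a had adjusted p-values of 0.576 and 0.812, and their 95% intervals of the log2 change, -0.36 to 1.06 and -0.52 to 0.89, did not reach the changes of Ep300 and Kmt2d in the same fit, although the difference between paralogues was not itself tested. With the correction for GC content and length Kmt2d was at -1.19 and was not called (adjusted p = 0.155).

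Of the 23 chromatin genes 5 were lower, against 3.79% of all genes tested, among them Tet2 (262 and 256 CPM, then 57.3 and 87.2 CPM, adjusted p = 0.013), and 1 was higher, against 1.85%, the deacetylase Hdac5 (17 and 14.4 CPM, then 104 and 37.4 CPM, adjusted p = 0.0218). The list's median log2 change was -0.311, and 0.139 with 4 lower under the correction for GC content and length. Calls of Srcap and Ep300 held with each of the 4 libraries left out (largest adjusted p 0.00435 and 0.0403), while without replicate 1 at 28 days Kmt2d (largest adjusted p over the 4 left-out libraries 0.0905), Tet2 (0.157) and Hdac5 (0.289) did not pass.

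The lower genes had longer and more GC-rich transcripts than the rest. Among protein-coding genes the longest annotated transcript had a median length of 4749 bases for genes lower at 28 days, 3289 for genes without a call and 2593.5 for genes higher, and the median GC content was 52.5%, 49.9% and 48.4%. In the 20% of genes with the shortest transcripts 1.28% were lower and 3.28% higher, and in the 20% with the longest 8.18% were lower and 1.15% higher. The part of length or GC in any single gene's change was not tested. Of the 89 called genes named in the text, 20 did not pass with the correction for GC content and length. The lower ones were Hmcn2 (log2 change -0.80, adjusted p = 0.0687), Notch3 (-2.65, 0.0531), Col4a2 (-1.14, 0.137), Col5a1 (-0.62, 0.32), Kmt2d, Egr1, Tgfbr2 and Ttyh3. The higher ones were Rrm2, Id1, Id3, Acta1, Tnnt3, Mfap5, Atg5, Cdc42ep3, Ifi35, Ndufb8, Psma7 and Uqcrc2. The other 69 passed with it, among them Notch1, Hspg2, Srcap and Ep300. In total 1263 genes passed with the correction, 989 of them among the 1312.

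**Figure D4:**
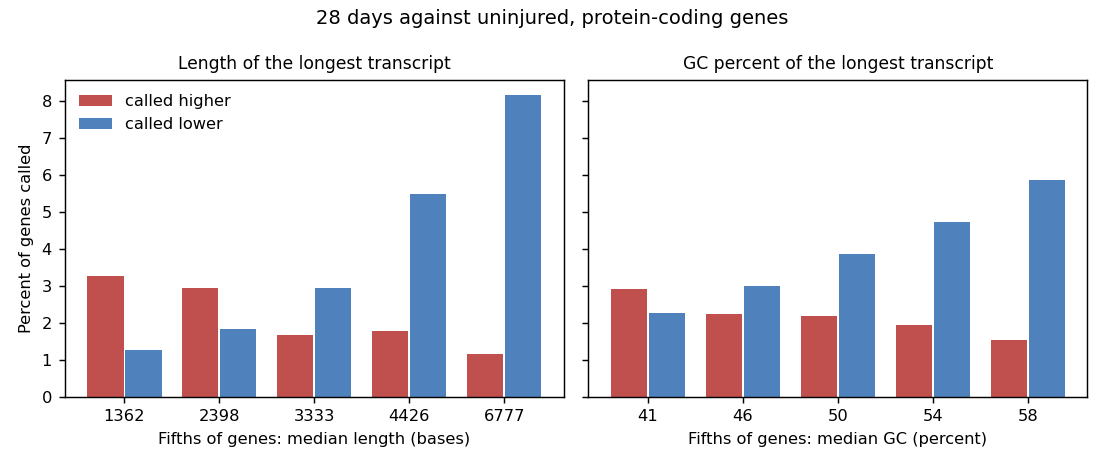
Percent of protein-coding genes called higher or lower at 28 days against uninjured cells in 5 equal bins of the length (left) and of the GC percent (right) of the longest annotated transcript, with about 3047 genes in each bin. Lower calls climb from 1.28% to 8.18% with length and from 2.26% to 5.87% with GC, and higher calls go from 3.28% to 1.15% and from 2.92% to 1.54%.

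Imprinted genes, which are expressed from one parental allele and several of which restrain growth, included 3 lower and no higher members among 15, against 3.79% and 1.85% of all genes tested, with a median log2 change of -1.15. Rtl1, a retrotransposon-derived gene of the Dlk1-Dio3 cluster, fell from 105 and 61 CPM to 1.88 and 2.31 CPM (-5.30 ± 0.68, adjusted p = 0.000363), a level near its 1.77 and 0.844 CPM at 60 h. Dlk1, of the same cluster, had 3.31 and 0.642 CPM in uninjured cells and no count at 28 days, at least 12.9-fold lower (adjusted p = 0.0118), and Nnat, an imprinted neuronal gene, fell by 2.51 on the log2 scale (0.0166). Peg3, an imprinted zinc finger gene of satellite cells, was at 4502 and 4709 CPM uninjured and 1423 and 1809 CPM at 28 days without a call (0.107), though it was called lower under 5 of 15 alternative settings. MicroRNA genes lie antisense to Rtl1, and with the strand of counting not given in the sources used here their reads cannot be told apart from its own. With a library left out Rtl1 kept its call (largest adjusted p 0.0137), Dlk1 reached 0.0984 and Nnat 0.126.

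Of 18 clock genes edgeR called 1 lower and none higher, against 3.79% and 1.85% of all genes tested. The counts were 2 and 0 by DESeq2 and 2 and 1 without a filter on low counts, and the median log2 change was -0.574. Nr1d1, the repressor REV-ERBα, fell from 1263 and 1204 CPM to 213 and 220 CPM, a log2 change of -2.51 ± 0.54 (adjusted p = 0.0134; 0.056 to 0.123 with a library left out). Per1, a repressor of the core loop, was at 858 and 586 CPM uninjured and 153 and 177 CPM at 28 days with an adjusted p of 0.0518, and passed under 9 of 15 alternative settings. Dbp and Tef, output factors of the clock, did not separate, Dbp at 146 and 74.4 CPM uninjured and 80.4 and 42.1 CPM at 28 days, Tef at 143 and 130 CPM and 161 and 164 CPM. Hours of day at sampling are not given in the labels. Clock factors bind the E-box CACGTG, which is its own reverse complement. The first of the Per1 windows (chr11:69098699-69098948, 250 bases before a RefSeq start, plus strand, GRCm38.p6) held 1 match, in capitals. The second Per1 window (chr11:69099902-69100151) and the Nr1d1 window (chr11:98775378-98775627, minus strand) held 0. These letters were in 1978 of 32851 windows (6.02%).
Per1: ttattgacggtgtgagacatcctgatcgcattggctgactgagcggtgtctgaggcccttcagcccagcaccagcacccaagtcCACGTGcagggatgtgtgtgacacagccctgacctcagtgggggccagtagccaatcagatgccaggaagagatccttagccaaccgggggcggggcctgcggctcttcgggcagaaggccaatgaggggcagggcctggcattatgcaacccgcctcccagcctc

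Genes lower by the largest amounts outside these lists were of mixed function. Limk1, a kinase of the actin cytoskeleton, had 23.7 and 18.5 CPM in uninjured cells, 18.6 and 18.4 CPM at 60 h and no count at 28 days, at least 171-fold lower by the floor of 3 counts over the group (adjusted p = 0.000894). Soga1, a regulator of autophagy, fell from 193 and 139 CPM to 8.93 and 8.29 CPM, and Ankrd52, a subunit of protein phosphatase 6, from 233 and 206 CPM to 13.3 and 10.5 CPM (adjusted p 3.47e-05 and 8.44e-05). Adgra2, an adhesion receptor that serves Wnt signalling in vessels, fell from 158 and 119 CPM to 10.4 and 8.76 CPM (0.000129). Nckap5l, a microtubule protein, and Acsf2, a mitochondrial acyl-CoA synthetase, fell from 197 and 115 CPM to 8.77 and 7.89 CPM and from 79.5 and 63.8 CPM to 1.88 and 0.478 CPM (0.00106 and 0.00519). These 6 genes kept their calls with each of the 4 libraries left out, with largest adjusted p-values of 0.0178, 0.00279, 0.00428, 0.0051, 0.0226 and 0.0456. B3galt2, Car12, Dagla, Dyrk1b, Raver1 and Ttyh3 were also lower, with log2 changes of -4.22 to -4.83, and lost the call with at least 1 library left out (largest adjusted p 0.213, 0.0664, 0.189, 0.143, 0.076 and 0.161).

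Among the genes that were higher was Slc43a3, a purine nucleobase transporter (ENSMUSG00000027074, chr2:84936579-84958509, mm10). It was at 176 and 178 CPM uninjured, 38.5 and 45.4 CPM at 60 h, 656 and 670 CPM at 7 days, 625 and 347 CPM at 14 days and 1434 and 1987 CPM at 28 days. The 28 day libraries were the highest of the 5 groups, with a log2 change from uninjured cells of 3.27 ± 0.43 (adjusted p = 0.000462; 0.00177 to 0.0139 with a library left out). Tsc22d3, the glucocorticoid-induced leucine zipper, was at 131 and 77.8 CPM uninjured, 219 and 241 CPM at 7 days, 154 and 120 CPM at 14 days and 703 and 924 CPM at 28 days (2.96 ± 0.67, adjusted p = 0.0173; 0.0536 to 0.162). Ccl11, the eosinophil chemokine eotaxin, was at 1.28 and 1.61 CPM uninjured, 0.165 and 0 CPM at 14 days and 23.3 and 37.4 CPM at 28 days (4.38 ± 0.74, adjusted p = 0.00295; 0.0105 to 0.0533, where it did not pass without uninjured replicate 1).

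Id genes, inhibitors of differentiation that respond to BMP, gave the 3 higher calls among 22 genes of Wnt, BMP and TGF beta signalling, where 1.85% of all genes tested were higher. Id1 was at 19.1 and 14.1 CPM uninjured and 62.6 and 72.4 CPM at 28 days, and Id3 at 111 and 123 CPM and 392 and 560 CPM (adjusted p 0.0304 and 0.0352). Id4 had no count in uninjured cells and 3.76 and 3.19 CPM at 28 days, at least 32.5-fold higher (0.0101). The single lower gene was Tgfbr2, a TGF beta receptor, at 103 and 130 CPM uninjured and 27.3 and 54.7 CPM at 28 days (0.0462). Id1 and Id3 lost the call with any of the 4 libraries left out, and Id4 and Tgfbr2 with at least 1 left out. The log2 change over these fits ranged from 1.82 to 2.26 for Id1, 1.73 to 2.26 for Id3 and -2.11 to -1.09 for Tgfbr2. Bmp6, a ligand of the pathway, was at 89.7 and 61.1 CPM uninjured, 3.79 and 2.11 CPM at 60 h, then 93.4 and 91.5 CPM at 28 days, where its groups lay side by side (adjusted p = 0.805).

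Other higher genes were of mixed function. Nupr1, a stress-induced chromatin protein, was at 13.1 and 19.6 CPM uninjured and 109 and 110 CPM at 28 days, and Ubb, a polyubiquitin gene, at 273 and 343 CPM and 1375 and 1683 CPM (adjusted p 0.00738 and 0.00677). Socs2, a feedback inhibitor of growth hormone signalling, was at 51.4 and 33.8 CPM uninjured and 176 and 204 CPM at 28 days (0.00677), and Anxa1, a phospholipid-binding protein that limits inflammation, at 13.9 and 24.6 CPM and 81.3 and 155 CPM (0.0117). Arglu1 and Luc7l3, both of pre-mRNA splicing, rose from 147 and 189 to 780 and 838 CPM and from 164 and 158 to 769 and 476 CPM. All 6 lost the call with at least 1 uninjured library left out (largest adjusted p 0.102, 0.0918, 0.0994, 0.145, 0.0734 and 0.0891). Riok1, a kinase of ribosome maturation, Retreg1, a receptor of endoplasmic reticulum autophagy, Tmem138, Dpysl3, Mospd1 and Cdc42ep3 were higher by 2.79 to 4.32 on the log2 scale, with largest adjusted p-values of 0.0957, 0.0948, 0.0852, 0.0987, 0.136 and 0.165.

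**Figure D5:**
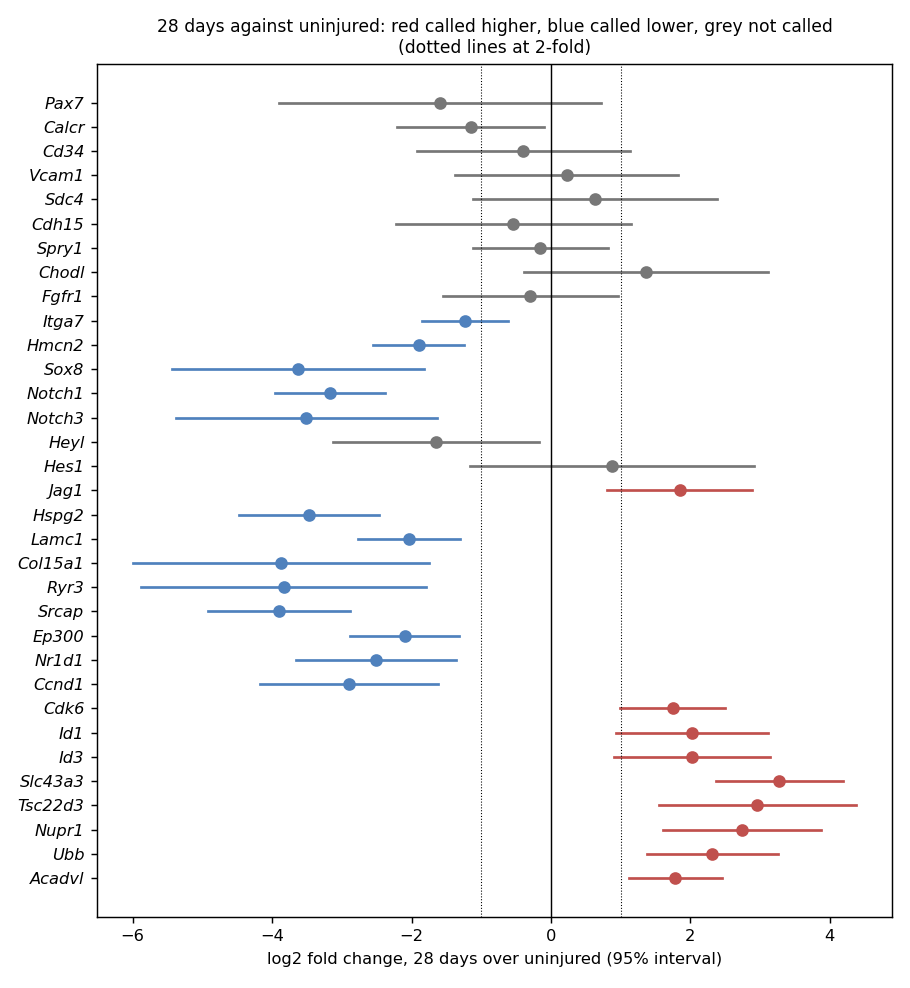
Log2 change at 28 days against uninjured cells for 33 genes, points with 95% intervals from the edgeR fit (red called higher, blue called lower, grey not called), with a line at 0 for no change and dotted lines at 2-fold. Intervals of Notch1, Hspg2, Srcap and Slc43a3 lie beyond 2-fold, and those of Pax7, Cd34, Vcam1 and Spry1 cross 0.

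Calls in the metabolic and related lists stand beside shares of 1.85% higher and 3.79% lower over all genes tested. Among 20 genes of fatty acid oxidation 2 were higher, Acadvl, the very long chain acyl-CoA dehydrogenase (33.3 and 54.1 CPM uninjured, 163 and 139 CPM at 28 days, adjusted p = 0.00422; up to 0.0892 without uninjured replicate 1), and the fatty acid carrier Fabp4 (4.28 and 12.1 CPM, then 129 and 27.3 CPM, 0.0456; up to 0.417). Fabp4 also marks endothelial cells and adipocytes. Of 29 oxidative phosphorylation genes Ndufb8 and Uqcrc2 were higher and Sdhc lower, with 27 of the 29 intervals within 4-fold of the uninjured level, and 20 were lower than at 60 h. Pdk4, which holds pyruvate back from the mitochondrion, was the 1 higher gene of 18 in the glycolysis list, at 9.62 and 10.3 CPM uninjured and 37.3 and 34.3 CPM at 28 days (adjusted p = 0.0362; 0.0816 to 0.218). Of 20 proteasome genes Psma7 was higher, of 20 lysosome and autophagy genes Map1lc3b and Atg5, and of 44 ribosomal protein genes 1 was lower, Rpl23, with 43 intervals within 4-fold. Point estimates were higher at 28 days in 18 of 20 fatty acid oxidation, 21 of 29 oxidative phosphorylation and 7 of 18 glycolysis genes. They were higher in 17 of 20 proteasome, 13 of 20 lysosome and autophagy and 15 of 44 ribosomal protein genes. The share of all genes with a higher point estimate is not given here. With the correction for GC content and length the median log2 change went from 0.439 to 0.0732 for the proteasome list. It went from 0.392 to 0.0833 for oxidative phosphorylation and from -0.253 to -0.591 for ribosomal protein genes, with 6 of these called lower. It went from 0.522 to 0.571 for fatty acid oxidation, 0.287 to 0.283 for lysosome and autophagy and -0.154 to -0.135 for glycolysis. With a library left out, Ndufb8, Uqcrc2, Sdhc, Psma7, Map1lc3b, Atg5 and Rpl23 each lost the call at least once (largest adjusted p 0.279, 0.141, 0.24, 0.243, 0.141, 0.237 and 0.109). Of 26 interferon and antigen presentation genes Ifi35 was higher (adjusted p = 0.049; 0.122 to 0.243), and of 22 NF-kB and cytokine genes edgeR called 0, with 3 at an unadjusted p under 0.05 and 2 lower by DESeq2.

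Markers of other cells were counted in the same way. Of 18 muscle fibre genes 7 were higher, against 1.85% of all genes tested, and 1 was lower (median log2 change 2.74, and 2.38 with genes at 0 taken at their bound), although the summed level was 465 and 315 CPM uninjured and 496 and 230 CPM at 28 days. Ckm, the muscle creatine kinase, was at 0.855 and 0.161 CPM uninjured and 25.5 and 5.26 CPM at 28 days, Acta1, skeletal actin, at 8.02 and 0.375 CPM and 104 and 13.9 CPM, and Myl1, a myosin light chain, at 0 and 1.28 CPM and 28.4 and 6.61 CPM (adjusted p 0.00604, 0.0439 and 0.0182). The other higher fibre genes were Myh4, Tnnt3, Tnnc2 and Pvalb, and the lower one was Atp2a1, the fast fibre calcium pump (167 and 90.2 CPM uninjured, 39.8 and 33.9 CPM at 28 days, adjusted p = 0.0472). In Ckm, Acta1 and Myl1 replicate 1 at 28 days was the highest of the 4 libraries, and without it no fibre gene was called in either direction. The largest adjusted p-values over the left-out libraries were 0.0827, 0.456 and 0.162 for Ckm, Acta1 and Myl1. Whether fibre RNA had a part in other changes was not tested.

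Of 14 endothelial markers 1 was higher, Emcn, with no count in uninjured cells and 2.27 and 2.55 CPM at 28 days (at least 22.5-fold, adjusted p = 0.0154; up to 0.135), and the list summed to 43.9 and 48.5 CPM uninjured and 159 and 55.6 CPM at 28 days. Pecam1, the defining endothelial marker, was at 35 CPM in replicate 1 and 3.74 CPM in replicate 2 at 28 days and at 0.641 and 4.07 CPM in uninjured cells. Of the 14 endothelial markers 12 had a higher point estimate at 28 days (median log2 change 1.69) and 5 had an unadjusted p under 0.05. DESeq2 called 3 higher and 0 lower. Fibro-adipogenic markers summed to 1570 and 1370 CPM uninjured and 1330 and 1430 CPM at 28 days, with 1 of 14 higher, Mfap5 (0 and 0.321 CPM, then 7.52 and 1.83 CPM, adjusted p = 0.0447; up to 0.273). Of these 14, 11 had a higher point estimate at 28 days (median log2 change 1.47) and 7 had an unadjusted p under 0.05. DESeq2 called 3 of them higher and 2 lower. The pericyte list summed to 2610 and 2230 CPM uninjured and 906 and 665 CPM at 28 days and had 1 of 12 called, Notch3, which satellite cells also express. Notch3 made up most of the uninjured sum. Of the 12 genes 8 had a higher point estimate (median log2 change 1.03) and 4 had an unadjusted p under 0.05. DESeq2 called 2 higher and 1 lower. The pericyte markers Rgs5 (3.74 and 5.41 CPM, then 39.2 and 24.6 CPM) and Pdgfrb (0.534 and 1.77 CPM, then 4.15 and 6.53 CPM) did not pass. Lists of macrophage (17 genes tested), neutrophil (7), lymphocyte (7), tendon (8), Schwann cell (10), red cell (5) and adipocyte (1) markers held no edgeR call. At an unadjusted p under 0.05 there were 3 macrophage and 2 tendon markers and none in the rest of these lists. Among them DESeq2 called 1 macrophage marker higher and 1 lower and no other. Of the 17 macrophage markers 9 had no count at 28 days, among them Adgre1, Csf1r and Itgam, and 12 had no count in uninjured cells. A higher point estimate at 28 days was found for 6 of the 17. Each of the 14 endothelial markers had a count at 28 days, and 1 had no count in uninjured cells. Macrophage markers summed to 6.41 and 4.98 CPM uninjured and 9.95 and 8.76 CPM at 28 days, and red cell markers to 70.4 and 78.6 CPM and 252 and 20.4 CPM, the last led by Hba-a1 at 144 and 7.33 CPM. Sums were 3.1 and 2.73 CPM uninjured and 0 and 20.2 CPM at 28 days for neutrophil markers, and 2.78 and 3.1 CPM against 7.13 and 9 CPM for lymphocyte markers. Tendon markers went from 18.8 and 18.6 CPM to 50.6 and 19 CPM and Schwann cell markers from 663 and 697 CPM to 449 and 629 CPM. The part of these markers in the other results was not tested.

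Some calls fell on gene models with near copies elsewhere, between which the counting could split reads, which was not tested. Among 2494 processed pseudogenes 52 (2.09%) were higher and 154 (6.17%) lower. The Gapdh copies Gm2574, Gapdh-ps15 and Gm12537 had adjusted p-values of 2.34e-06, 5.14e-06 and 4.07e-06. Gm2574 was at 29.6 and 23 CPM uninjured, 91.4 and 104 CPM at 60 h, 0 and 0.0811 CPM at 7 days, 63.9 and 64.1 CPM at 14 days and 0 and 0.0797 CPM at 28 days, so it was near 0 at 7 and 28 days and not at 14 days within one table. Gapdh itself was at 50.4 and 41.3 CPM uninjured and 119 and 63.6 CPM at 28 days (adjusted p = 0.104). Lrch4 and Sap25, neighbours on chromosome 5, moved in opposite directions, Lrch4 (chr5:137629121-137641099, mm10) from 88 and 165 CPM to 0.627 and 0.0797 CPM and Sap25 (chr5:137641334-137642902) from 1.07 and 0.803 CPM to 73.8 and 16.1 CPM (adjusted p 0.00132 and 0.0145; with a library left out up to 0.0191 and 0.135). Both overlap another model on the same strand, Gm20605, at 200 and 179 CPM uninjured and 105 and 86.4 CPM at 28 days, and reads of the 3 models cannot be assigned apart in these counts. Notch1, Notch3, Srcap, Sox8, Itga7, Ryr3, Ccnd1, Cdk6 and Nr1d1 overlap other gene models on the opposite strand, Col4a1 and Col4a2 overlap each other, and with the strand of counting unknown their reads cannot be told apart. The nuclear RNA Malat1 was at 25399 and 26742 CPM uninjured, 2393 and 2125 CPM at 60 h, then 49002 and 50727 CPM at 28 days (adjusted p = 0.112 against uninjured), and Neat1 at 636 and 722, 149 and 178, and 1887 and 1446 CPM (0.0902).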

How the data were processed

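RNA-seq was compared in 4 libraries of satellite cells, 2 of uninjured and 2 of 28 day muscle, per the labels. Polyadenylated RNA was extracted with an FFPE kit, cDNA was made with SMART-Seq v4 and libraries with Tn5. The submitters' processing notes name Trimmomatic 0.36, HISAT2 2.1.0, SAMtools 1.3, StringTie 1.3.3 and the mm10 genome. The program and strand used for counting, and the gene annotation, were not given in the sources used here. The authors deposited whole-number counts per gene, with the same 55450 identifiers in both tables used, all found in GENCODE M21. No column of these tables was left unmapped.

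Counts of 24 libraries in 12 groups were fitted together with edgeR 4.0.16 (limma 3.58.1, data.table version 1.17.8, R 4.3.3) after filterByExpr (minimum count 10, minimum total 15) and TMM scaling. Groups were compared with the two-sided quasi-likelihood F test and p-values were adjusted by Benjamini-Hochberg over the 23244 genes tested, with calls below 0.05. The SE is the absolute log2 change over the square root of F, and intervals are 95%. Common dispersion was 0.366. Folds against 0 are bounds from a floor of 3 counts for both libraries of a group together, which covers counting error only, since no molecular identifiers are mentioned. Replicate numbers did not pair the samples. Alternatives were RLE factors, DESeq2 1.42.0, no filter, a replicate block, other sets of libraries, models left out, each library left out and, chosen after seeing the data, offsets for GC content and length.

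The comparison, the lists and the naming rule were chosen with earlier results of these data known. The rule took the 12 largest rises and falls among called genes whose higher group averaged at least 20 CPM and whose libraries did not overlap between groups, 4 members of each list with the smallest adjusted p, and a panel of known genes. Printed genes are a selection from it, and the result for 1 gene is not reported here. Chosen after their values were seen were the pseudogenes, Gm20605, Adgra2, Ankrd52, Anxa1, Arglu1, Luc7l3, Nupr1, Ryr3, Socs2, Tnxb, Ubb and the list members Atp2a1, Bmp6, Col4a1, Col5a1, Col5a2, Col6a1, Crebbp, Chrdl2, Dag1, Dbp, Hdac5, Hey1, Kmt2a, Lama2, Lama4, Megf10, Myh4, Notch2, Pcna, Tef, Tet2 and Tnnt3. The test was checked on simulated counts of this comparison (22336 genes, 200 changed, these drawn from genes above a minimum count in uninjured cells). There 2%, 20%, 54% and 78% of changes of 2, 4, 8 and 16-fold were recovered, and 3 of 80 calls were false.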

Additional observations from a re-analysis of the deposited data

Results flagged for a closer look

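Gene models made of satellite repeats stayed in the fit and in the counts of genes called, and were passed over when genes were named. They took 15% of the counts in replicate 1 and 2.56% in replicate 2 at 28 days, above the 0.00112% and 0.00435% of the uninjured libraries. Of the other libraries of the fit, the largest share was 2.34%, in replicate 1 at 2 h. The part of these models in the gene results was not tested.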

How the results depend on the processing

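The number of genes that differed from uninjured cells was 1312, and 3280 with DESeq2 and 2206 without the 0.5 to 4 h groups. With each library left out it was 296 to 964, and under the other alternatives 880 to 1893. Against 60 h, 6299 genes became 3188 to 4758 with a library left out. The 560 genes with an interval within 2-fold became 841 with DESeq2, 142 with no filter on low counts, 862 with only uninjured, 7, 14 and 28 day libraries, 1216 without the 0.5 to 4 h groups and 1347 with only the groups compared, and 105 to 166 with a library left out. Of the 1312 genes 1310 were also called by DESeq2, 1052 with the replicate block and 255 without replicate 1 at 28 days. With the replicate block 1062 genes differed from uninjured cells, 5885 from 60 h cells, and 505 intervals lay within 2-fold. The deviations of same-numbered libraries correlated at 0.0272 (28 days and uninjured) and 0.0118 (28 days and 60 h), so the block is an alternative only. Of 89 called genes in the text, 18 kept their call with each of the 4 libraries left out. Over all alternatives their results kept direction and call 1027 times and lost the call 304 times, and none changed sign. The 44 named genes without a call were called 72 times, with Neat1 called under 5 of 15 settings and Mki67, Mymk, Pdgfrb and Rgs5 each under 3, and changed sign 12 times. Over the fits that leave out 1 library the log2 change ranged from -0.84 to 0.25 for Cd34, -0.91 to 0.41 for Fos, -2.34 to 1.93 for Hba-a1, -0.16 to 0.46 for Kmt2a, -0.66 to 0.0903 for Lama2, -0.90 to 0.12 for Myod1, -1.05 to 0.39 for Spry1 and -0.64 to 0.76 for Vcam1. Each crossed 0 without replicate 1 at 28 days, except Cd34, which did without uninjured replicate 2, and Vcam1, without replicate 2 at 28 days. Fos also did without uninjured replicate 1 (0.31). With the GC and length correction it was 0.0495 for Col6a1, 0.34 for Lama2 and 0.27 for Notch2. The cause was not tested. A library left alone in its group was assumed to vary like the other groups. With 2 libraries of 9.76 to 21.4 M counts per group, most 2-fold and 4-fold changes in simulated counts were missed.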
